A study of Homo sapiens with 4 samples.

Results

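The BCL2 family sets whether a cell releases cytochrome c from its mitochondria and starts its own death by apoptosis. Prosurvival proteins hold the effectors in check, the effectors open pores in the outer mitochondrial membrane, and BH3-only proteins block the prosurvival proteins or switch the effectors on. Hepatocytes are known to depend on MCL1 and BCL-xL, the product of BCL2L1, for survival. The 10 members described here were chosen by name. They are the prosurvival genes BCL2, BCL2L1 and MCL1, the effectors BAX and BAK1, and the BH3-only genes BID, BAD, BCL2L11 (BIM), BBC3 (PUMA) and PMAIP1 (NOXA). They are 10 of the 46427 genes in the deposited tables. The column meant for gene names holds 0 names in these tables, so each member was found by its NCBI Gene number, and each had 1 line in every table.

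Huh7 and HepG2 are established cell lines, both labelled as hepatocellular carcinoma (HCC). Cells of each line were given 20 nM of either 1 siRNA against COP1 (COP1-siRNA) or a negative control (NC-siRNA), with 5 h of transfection and harvest at 48 h. There was no untreated sample, the control and the COP1-siRNA came from different suppliers, and all 4 libraries carry the same batch label. COP1 is an E3 ubiquitin ligase, and the study asked which genes respond to its loss in HCC cells. With 1 library per line and siRNA there is no spread between replicates, so no test was run within a line, and none of the differences given here has a p-value or an interval.

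Levels are given in TPM, the share of transcripts scaled to a fixed total, which is set to length and to the library and so allows genes to be compared. Changes are given as log2((TPM + 1)/(TPM + 1)), a scale that understates the change of low genes. Coverage per unit of FPKM, which follows the amount of sequence in a library, ranged from 5.75 to 7.47, while the number of reads is unknown. COP1 itself stood at 19.7 (NC-siRNA) and 6.18 (COP1-siRNA) TPM in Huh7 and at 26.9 and 16.1 TPM in HepG2, a smaller fall in the second line. Of 7 hepatocyte markers, all 7 were above 1 TPM in every library, with a summed level of 2656 to 17784 TPM. Of 9 markers of stromal, endothelial and blood cells, 2 were above 1 TPM in each library, CD68 in all 4, PECAM1 in Huh7 and COL1A1 in HepG2, while DCN, PTPRC and CD3E were listed at 0 in all 4. In cultures of this kind, fewer cells of a type and less RNA per cell cannot be told apart.

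On the log2(TPM + 1) scale, none of the 10 members changed 2-fold with COP1-siRNA in either line, and none changed 1.5-fold. Among all genes with at least 1 TPM in at least 1 library of the line, 1.08% of 13000 genes in Huh7 and 0.934% of 14456 genes in HepG2 passed 2-fold. Split by direction, 0.638% were higher and 0.446% lower in Huh7, and 0.54% higher and 0.394% lower in HepG2. At 1.5-fold the shares were 5.48% in Huh7 (2.8% higher, 2.68% lower) and 4.43% in HepG2 (2.56% higher, 1.87% lower). Against shares this small, 0 of 10 members is near the background and does not set the family apart. In Huh7, where 9 members had at least 1 TPM, the log2 fold changes ran from −0.28 to 0.30 with a median of 0.12, against a median of −0.00083 for all tested genes. In HepG2, where all 10 could be read, they ran from −0.14 to 0.24 with a median of 0.0055, against −0.0080. The central 90% of all tested genes spanned −0.47 to 0.45 (Huh7) and −0.41 to 0.43 (HepG2), and each member with at least 1 TPM lay inside.

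**Figure D1:**
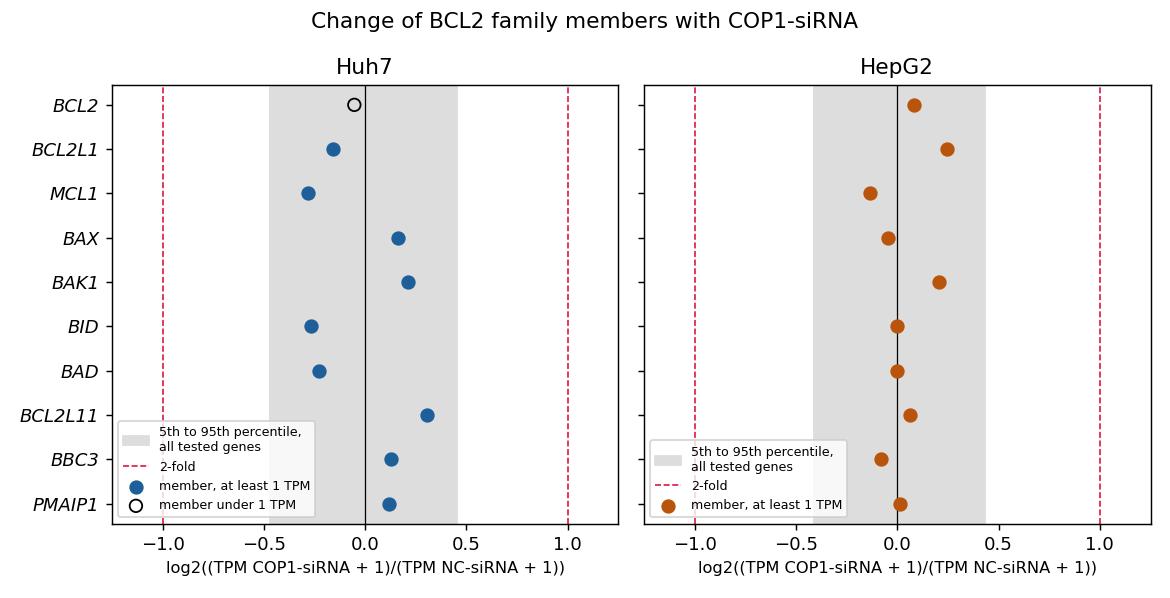
Log2 fold change of each member with COP1-siRNA against NC-siRNA, on the log2(TPM + 1) scale, in Huh7 (left) and HepG2 (right), with 1 library per condition and so no error bars. All points lie inside the grey band, which holds the central 90% of all tested genes (−0.47 to 0.45 in Huh7, −0.41 to 0.43 in HepG2), and far from the dashed lines at 2-fold.

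The lines differed more than the siRNAs, for the members as for all genes. Of the 10 members, 4 differed by 2-fold or more between HepG2 and Huh7 with both siRNAs: PMAIP1 and BCL2 were higher in HepG2, and BCL2L1 and BID were higher in Huh7. Among the 15486 genes with at least 1 TPM in any library, 34.6% met this rule, 22.4% with the higher level in HepG2 and 12.2% with the higher level in Huh7, so a count of 4 in 10 is near the background. With each member averaged over the 2 comparisons of a kind, the median absolute log2 difference was 0.82 between the lines and 0.12 with COP1-siRNA. By siRNA, the median between the lines was 0.81 (NC-siRNA) and 0.82 (COP1-siRNA) over the members. Over all tested genes it was 0.82 and 0.78. For the change with COP1-siRNA, the median was 0.21 in Huh7 and 0.07 in HepG2 over the members with at least 1 TPM. Over all tested genes it was 0.15 and 0.14. The members thus lay above all tested genes in Huh7 and below them in HepG2, which was not tested. The larger difference between the lines is not particular to the family. For 7 members the difference between the lines was the larger one, and for MCL1, BAK1 and BCL2L11 it was the smaller one. All genes together were shifted between the lines: the median log2 difference of HepG2 against Huh7 was 0.36 with NC-siRNA and 0.35 with COP1-siRNA. Median-of-ratios scaling moves the values of well-expressed genes by −0.35 and −0.34, and each value between the lines is to be read against that shift.

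**Figure D2:**
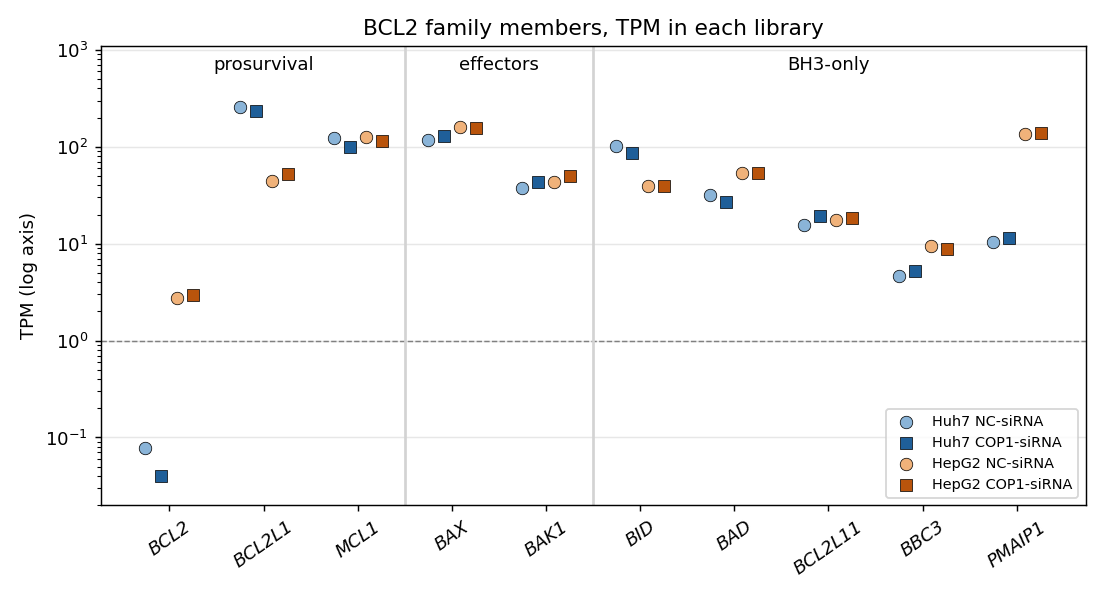
TPM of the 10 members (log axis) in each of the 4 libraries, circles for NC-siRNA and squares for COP1-siRNA, ordered by role, with a dashed line at 1 TPM. The pairs of 1 line lie close together for every member above that line, while PMAIP1, BCL2L1, BID and BCL2 separate by line.

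Of the prosurvival genes, BCL2L1 separated the lines and MCL1 did not. BCL2L1 (gene 598, chromosome 20, 31664452 to 31723963, minus strand, GRCh38) encodes BCL-xL, which binds both effectors and most BH3-only proteins. In Huh7 it reached 258 TPM (NC-siRNA) and 232 TPM (COP1-siRNA), and in HepG2 44.6 and 53.0 TPM, in the same order of siRNAs, which is kept from here on. Both Huh7 values stood above both HepG2 values, by 5.80-fold between the NC-siRNA libraries and by 4.38-fold between the COP1-siRNA libraries. BCL2L1 was the most abundant member in Huh7, at the 96.9th percentile of the genes detected with NC-siRNA, and the fifth in HepG2, at the 84.1st. The COP1-siRNA changes were of opposite sign, −0.16 in Huh7 and 0.24 in HepG2, and the second was the largest change of any member in HepG2. BCL2L1 can be spliced into a long and a short form with opposite actions, and a gene table does not separate them. A noncoding antisense gene, BCL2L1-AS1, overlaps it and was listed at 0 in all 4 libraries. Another gene on the opposite strand, gene 103021294, was at 1.88 and 1.82 TPM in Huh7 and at 0 and 0.298 TPM in HepG2.

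MCL1 (gene 4170, chromosome 1, 150574551 to 150579738, minus strand) encodes a short-lived prosurvival protein that is the main partner of NOXA. It was at 122 and 100.4 TPM in Huh7 and at 126 and 114 TPM in HepG2. The 4 values overlap between the lines, and the COP1-siRNA library was the lower one in each line, with log2 fold changes of −0.28 and −0.14. With median-of-ratios scaling the small HepG2 excess of MCL1, 0.04 with NC-siRNA, turned to −0.30.

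BCL2 (gene 596, chromosome 18, 63123346 to 63320280, minus strand), the founding member, was the lowest of the 10 genes in every library. Its level was 0.0787 and 0.0396 TPM in Huh7, with a mean coverage of 0.013 and 0.033 reads per base, too little to read a change from. In HepG2 it was at 2.73 and 2.95 TPM, with a coverage of 1.41 and 2.07 and a log2 fold change of 0.08. The HepG2 values were higher than those of Huh7 by 1.79 with NC-siRNA and 1.93 with COP1-siRNA on the log2(TPM + 1) scale. On depth-scaled coverage, which is the mean coverage over the whole gene model put on the TPM scale, with the same added 1, the NC-siRNA difference was 0.64, under 2-fold.

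The annotated 3′ UTR of BCL2 (transcript ENST00000398117.1 of GENCODE 29, 5279 bases) was of interest because siRNAs can also act through a seed match. It holds 1 copy of the 7-base site CCAAGTT, which pairs with the antisense seed of the COP1-siRNA, and 1 copy of AGCATTC, which pairs with the sense seed. BCL2L11, the member with the largest rise in Huh7, holds 1 copy of the second site in transcript ENST00000615946.4. The sites with their flanks are shown with the 7 matching bases in capitals.
BCL2, CCAAGTT site: gtaaaacattcCCAAGTTtggatcaggga
BCL2, AGCATTC site: gattcttcaaaAGCATTCtgagaaggtga
BCL2L11, AGCATTC site: gtaaaggagggAGCATTCtttgcttttta
Thus 1 of 10 members carried the antisense seed site and 2 of 10 the sense seed site. The shares were 12.7% and 11.7% of 12570 genes with a known 3′ UTR and at least 1 TPM in any library. The 3′ UTRs of BCL2 and BCL2L11 are long, 5279 and 4480 bases against a median of 1343.5 over these genes. The shares were not adjusted for length. No member held either NC-siRNA site (TCGGAGA, in 2.20%, and TGTCACG, in 3.05%). The log2 fold change was 0.08 for BCL2 in HepG2, where it could be read. For BCL2L11 it was 0.30 in Huh7 and 0.06 in HepG2. Action of the siRNAs through these sites was not tested. A match of 7 bases is a description and not a shown site of action.

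The effectors differed little between the lines. BAX (gene 581, chromosome 19, 48954825 to 48961798, plus strand) encodes an effector that moves from the cytosol to mitochondria when activated. It was at 117 and 130 TPM in Huh7 and at 162 and 157 TPM in HepG2. Both HepG2 values were above both Huh7 values, by 1.39-fold with NC-siRNA and 1.20-fold with COP1-siRNA, and the log2 fold changes with COP1-siRNA were 0.16 and −0.04. BAX was the most abundant member in HepG2 and the most abundant proapoptotic gene in Huh7. Its RefSeq promoter (GRCh38.p14, chr19:48954625-48954924, plus strand, 250 bases before the start and 50 after it) is shown for its run of E-boxes; its start lies 50 bases inside the start in the deposited tables.
BAX: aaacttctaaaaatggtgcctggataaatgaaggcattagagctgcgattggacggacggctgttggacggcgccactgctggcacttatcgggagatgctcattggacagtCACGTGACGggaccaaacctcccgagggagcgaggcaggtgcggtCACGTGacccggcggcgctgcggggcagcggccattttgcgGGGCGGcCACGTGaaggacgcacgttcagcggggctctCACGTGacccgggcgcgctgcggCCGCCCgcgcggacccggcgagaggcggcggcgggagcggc
Capitals mark every match, on either strand, to the E-box CACGTG, the GC box GGGCGG and the CRE core TGACG, motifs that were picked after the sequences had been seen. The promoter held 4 E-boxes, 2 GC boxes and 1 CRE core, and the CRE core shared 2 bases with an E-box. An E-box was present in 7.26% of 35116 promoters of this length and 4 or more in 0.0142%. A match in letters does not show binding by any factor.

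BAK1 (gene 578, chromosome 6, 33572552 to 33580296, minus strand) encodes the effector that resides on mitochondria and is held by MCL1 and BCL-xL. Its TPM was 37.6 and 43.7 in Huh7 and 43.0 and 49.8 in HepG2. The values of the lines overlap, and in each line COP1-siRNA gave the higher one by almost the same amount (log2 fold change 0.21 in Huh7, 0.21 in HepG2). BAK1 had the largest mean absolute change of the members, 0.2098 against 0.2086 for MCL1, and was the only one above 0.20 in both lines. On depth-scaled coverage the values were 0.21 and 0.20 for BAK1 and −0.28 and −0.14 for MCL1, so that MCL1 came first. The search for genes of like profile used BAK1 by the TPM order. Over the 4 libraries, of 11970 genes with at least 1 TPM in both lines, those whose centred log2(TPM + 1) profile lay nearest to that of BAK1 were MGA, ATXN1L and CNEP1R1, at Euclidean distances of 0.016, 0.021 and 0.026. With only 4 points this likeness is a description of these libraries alone. The ratio of BAX to BAK1 was 3.10 and 2.98 in Huh7 and 3.76 and 3.15 in HepG2.

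Among the BH3-only genes, PMAIP1 separated the lines most. PMAIP1 (gene 5366, chromosome 18, 59899996 to 59904305, plus strand) encodes NOXA, which binds MCL1 and promotes its breakdown. Its level was 10.4 and 11.3 TPM in Huh7 and 137 and 138 TPM in HepG2, 13.2-fold higher in HepG2 with NC-siRNA and 12.2-fold with COP1-siRNA. Its mean coverage was 13.1 and 16.8 reads per base in Huh7 and 163 and 202 in HepG2. No other member differed as much on the log2(TPM + 1) scale, where BCL2 is held back by its level near 0, and the values with the 2 siRNAs were nearly alike within each line, with log2 fold changes of 0.12 and 0.01. It ranked second of the 10 members in HepG2 and eighth in Huh7 by TPM, and the third and the seventh by depth-scaled coverage. MCL1 exceeded PMAIP1 by 11.8 and 8.86 times in Huh7, whereas in HepG2 their ratio was 0.921 and 0.831. This order in HepG2 was reversed on depth-scaled coverage. There MCL1 was at 121.6 and 110.4 and PMAIP1 at 65.4 and 64.6, since for PMAIP1 the scaled coverage was only 46.9% to 47.8% of its TPM.

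The RefSeq promoters of PMAIP1 (GRCh38.p14, chr18:59899746-59900045, plus strand) and BCL2L1 (chr20:31723914-31724213, minus strand) are shown because these genes had the largest differences between the lines on the log2(TPM + 1) scale, in opposite directions. With a pseudocount of 0.1 the difference of BCL2, at 3.99, exceeded that of PMAIP1, at 3.71. Both are placed on the gene start that the deposited tables also give, with the same motifs in capitals.
PMAIP1: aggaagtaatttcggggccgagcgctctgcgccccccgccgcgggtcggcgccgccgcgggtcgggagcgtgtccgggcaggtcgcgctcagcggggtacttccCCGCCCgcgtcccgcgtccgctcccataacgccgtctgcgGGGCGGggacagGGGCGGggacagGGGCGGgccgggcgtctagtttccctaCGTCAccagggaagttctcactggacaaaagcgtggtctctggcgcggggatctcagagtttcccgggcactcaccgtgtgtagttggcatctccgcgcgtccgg
BCL2L1: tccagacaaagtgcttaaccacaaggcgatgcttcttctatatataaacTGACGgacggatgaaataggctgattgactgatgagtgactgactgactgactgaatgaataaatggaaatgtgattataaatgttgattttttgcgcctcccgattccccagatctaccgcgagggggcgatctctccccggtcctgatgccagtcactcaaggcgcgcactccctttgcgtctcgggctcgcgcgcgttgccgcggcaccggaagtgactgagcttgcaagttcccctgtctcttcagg
The PMAIP1 promoter was 71.3% G and C and held 4 GC boxes, while that of BCL2L1 was 52.0% G and C and held 0. Each had 1 CRE core and no E-box. Of the 9 members with a promoter in the table, 5 had a GC box and 5 a CRE core, against 45.0% and 24.6% of all promoters of this length. Only the promoter nearest to the deposited gene start was searched, 1 of 2 listed for BCL2L1 and BAD and 1 of 5 for BID. The promoters of BCL2 and BBC3 lay 511 and 331 bases from that start.

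BID (gene 637, chromosome 22, 17734138 to 17774665, minus strand), which links death receptors to mitochondria once caspase-8 cleaves it, was the most abundant BH3-only gene in Huh7. It was at 103 and 85.4 TPM in Huh7 and at 39.0 and 39.0 TPM in HepG2. Huh7 was above HepG2 by 2.64-fold with NC-siRNA and by 2.19-fold with COP1-siRNA. With COP1-siRNA it was lower in Huh7 (log2 fold change −0.27) and level in HepG2, with −0.000845 and a sign that turned under other scalings. CASP8 went the same way between the lines, at 42.7 and 49.9 TPM in Huh7 and 13.5 and 14.8 TPM in HepG2, a gene picked after its values were seen.

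BAD (gene 572, chromosome 11, 64269828 to 64284704, minus strand) encodes a BH3-only protein that growth factor signalling silences by phosphorylation. It was at 31.9 and 27.1 TPM in Huh7 and at 54.1 and 54.1 TPM in HepG2. Both HepG2 values were higher, with log2 differences of 0.74 and 0.97, both under 2-fold. BAD changed by −0.23 in Huh7 and −0.00040 in HepG2. GPR137 on the opposite strand overlaps BAD, at 16.9 to 30.4 TPM, and how reads of overlapping genes were divided is not given in the sources used here.

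BCL2L11 (gene 10018, chromosome 2, 111120914 to 111168445, plus strand) encodes BIM, a strong activator of apoptosis that is controlled by FOXO3 and by ERK signalling. It was at 15.5 and 19.4 TPM in Huh7 and at 17.6 and 18.4 TPM in HepG2, values that overlap. The COP1-siRNA library was the higher one in each line, and the Huh7 rise of 0.30 was the largest change of any member. On depth-scaled coverage with the same added 1 it was 0.21, smaller in size than the changes of MCL1, BID, BAD and BAK1 there. That order depends on the added 1, since the scaled coverage of BCL2L11 in Huh7 was only 2.01 and 2.47. With a pseudocount of 0.1 on coverage, chosen after the data were seen, the BCL2L11 rise was 0.285. MCL1 was then at −0.287, BID at −0.257, BAD at −0.228 and BAK1 at 0.216. The scaled coverage of BCL2L11 was only 12.7% to 15.1% of its TPM, so its place among the members by TPM, seventh or eighth, is less certain than that of MCL1, where this share was 96.4% to 96.7%.

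BBC3 (gene 27113, chromosome 19, 47220822 to 47232998, minus strand) encodes PUMA, which binds all prosurvival members. It was at 4.67 and 5.18 TPM in Huh7 and at 9.43 and 8.85 TPM in HepG2. The HepG2 values were higher by 0.88 and 0.67 on the log2(TPM + 1) scale. Its COP1-siRNA changes were 0.13 and −0.08, of opposite sign. The small RNA genes MIR3190 and MIR3191 lie inside BBC3 and had at most 1.83 TPM.

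**Figure D3:**
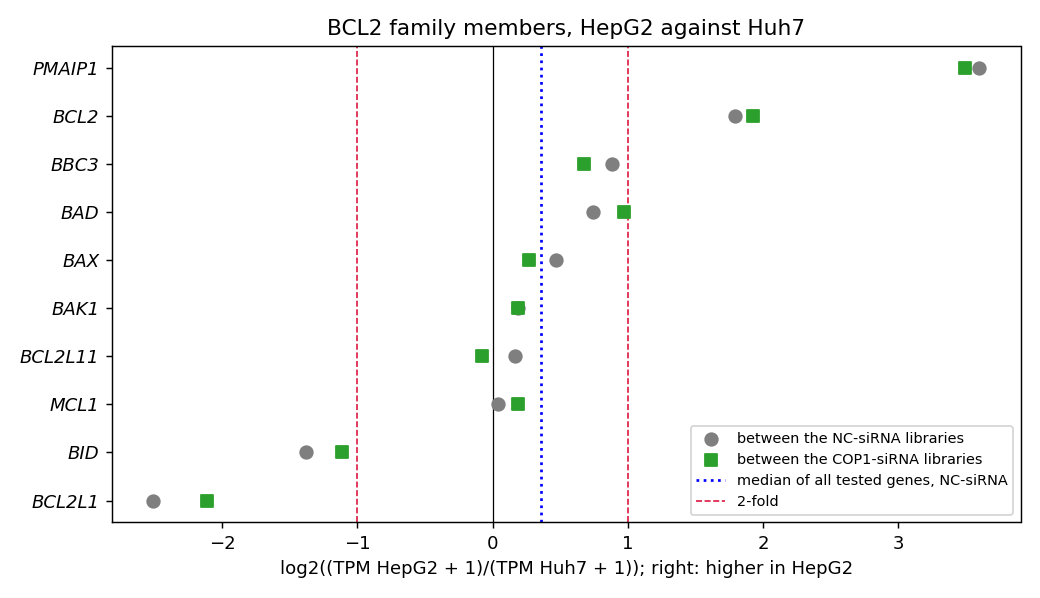
Log2 difference of HepG2 against Huh7 for each member on the log2(TPM + 1) scale, between the NC-siRNA libraries (circles) and between the COP1-siRNA libraries (squares); values to the right are higher in HepG2, and the dotted line is the median of all tested genes (0.36). PMAIP1 lies at 3.60 and 3.49 and BCL2L1 at −2.51 and −2.11, and both lie on the same side with either siRNA.

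Summed by role, the members gave the lines different make-ups at similar totals. The total was 700.2 and 655 TPM in Huh7 and 635 and 635 TPM in HepG2. Prosurvival genes held 54.4% and 50.7% of it in Huh7 and 27.3% and 26.8% in HepG2. BH3-only genes held 23.6% and 22.7% in Huh7 and 40.5% and 40.6% in HepG2, and the effectors held 22.0% and 26.6% against 32.3% and 32.5%. The ratio of prosurvival to all proapoptotic TPM was thus 1.19 with NC-siRNA and 1.03 with COP1-siRNA in Huh7, and 0.375 and 0.366 in HepG2. Depth-scaled coverage gave 1.45 and 1.28 in Huh7 and 0.511 and 0.495 in HepG2. With BCL2L2, BCL2A1, BCL2L10, BOK, BIK, BMF and HRK added by role, the TPM ratio was 1.08 and 0.938 in Huh7. The Huh7 ratio is thus not above 1 under every choice. Other further family genes, such as BNIP3 and BCL2L13, were not added. BCL2L1 made up 67.9% and 69.8% of the prosurvival TPM in Huh7, and MCL1 72.7% and 67.2% in HepG2. Among the BH3-only genes, BID held 62.2% and 57.6% in Huh7 and PMAIP1 held 53.2% and 53.4% in HepG2. The ratio rests on BCL2L1: without it the Huh7 values were 0.383 and 0.311, and the excess of Huh7 over HepG2 went from 3.18-fold to 1.37-fold with NC-siRNA and from 2.81-fold to 1.23-fold with COP1-siRNA. RNA levels do not give protein levels, and several of these proteins, MCL1 and NOXA above all, are known for rapid turnover.

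**Figure D4:**
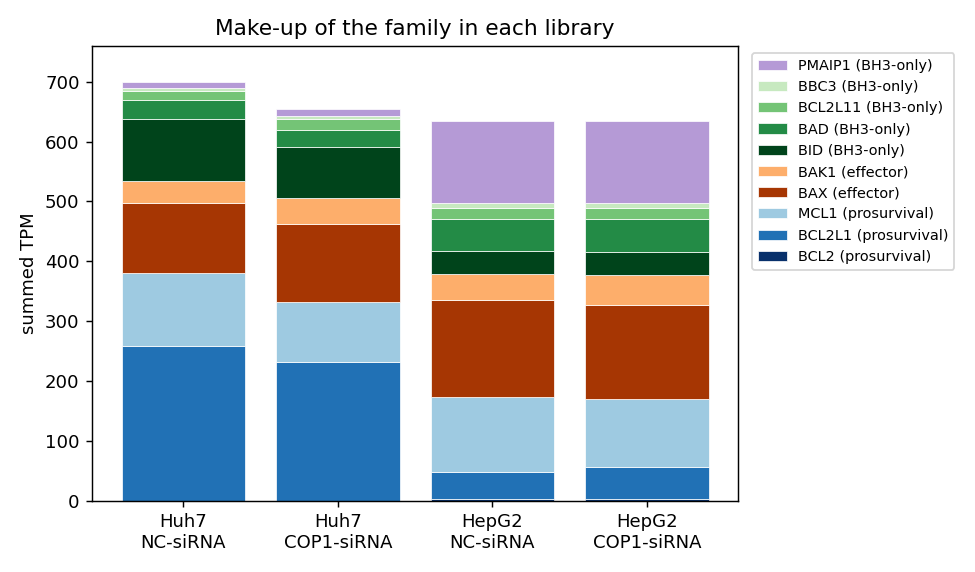
Summed TPM of the 10 members in each of the 4 libraries, stacked by gene (blue, prosurvival; brown and orange, effectors; green and violet, BH3-only). The totals run from 635 to 700.2 TPM, with a large BCL2L1 block in Huh7 and a large PMAIP1 block in HepG2.

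The rest of the family was read from a list of 13 further genes, of which 7 had at least 1 TPM in Huh7 and 10 in HepG2. None changed 1.5-fold with COP1-siRNA on the log2(TPM + 1) scale, and the median log2 fold change was 0.10 in Huh7 and 0.13 in HepG2. BOK, an effector-like gene, was at 16.7 and 21.0 TPM in Huh7 and at 5.53 and 7.26 TPM in HepG2. It was the only gene of the whole family above 0.30 in each line, at 0.31 and 0.34 on the log2 scale. BCL2L2, a prosurvival gene, was at 8.98 and 10.1 TPM in Huh7 and at 7.97 and 10.4 TPM in HepG2 (changes of 0.16 and 0.34). It shares exons with the read-through gene BCL2L2-PABPN1, so its value is uncertain.

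BMF and HRK, both BH3-only genes, differed by line as sharply as the members did. BMF was at 22.2 and 20.7 TPM in Huh7 and at 3.75 and 3.48 TPM in HepG2, 5.91-fold and 5.95-fold higher in Huh7. HRK was at 0.180 and 0.202 TPM in Huh7 and at 7.26 and 8.81 TPM in HepG2. BOK, too, was higher in Huh7, by 3.02-fold and 2.90-fold. BIK stayed between 0.642 and 1.46 TPM. BCL2A1 was listed at 0 in Huh7 and at 0.662 and 1.14 TPM in HepG2, a plain ratio of 1.72 without the added 1. BCL2L10, BCL2L14 and BCL2L15 did not exceed 0.147 TPM in any library.

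BNIP3 and BNIP3L, known for mitophagy, were at 61.3 to 93.5 TPM and 21.2 to 33.5 TPM. BNIP3L was lower with COP1-siRNA in both lines, by −0.17 and −0.28 on the log2 scale. BCL2L12 was at 39.0 to 62.8 TPM and BCL2L13 at 33.7 to 53.5 TPM, with positive changes of 0.10 to 0.20 in both lines.

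Around the family, 36 genes of the mitochondrial pathway and its regulators were read, in 4 groups. None passed 2-fold in either line. At 1.5-fold on the log2(TPM + 1) scale, 1 was higher and 1 lower in Huh7 among 35 with at least 1 TPM. In HepG2 0 of 36 passed, beside 5.48% (Huh7) and 4.43% (HepG2) of all tested genes. BIRC3 is an inhibitor of apoptosis that the study lists among its responding genes from these same libraries. It was at 2.86 and 5.45 TPM in Huh7 (change of 0.74) and at 0.702 and 1.24 TPM in HepG2 (change of 0.39). As plain TPM ratios, without the added 1, BIRC3 rose 1.91-fold in Huh7 and 1.76-fold in HepG2, both past 1.5-fold. The study's list was cut at 2-fold with a p-value, and neither TPM ratio reached 2-fold here. The fold changes behind that list were not used here and may rest on another measure, as the processing notes name edgeR. That list was drawn from these libraries, so it is not independent evidence.

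FOXO3, a transcription factor, was at 11.7 and 6.71 TPM in Huh7 (change of −0.72) and at 20.0 and 16.6 TPM in HepG2 (change of −0.25). Depth-scaled coverage with the same added 1 gave −0.34 in Huh7. There the scaled coverage was 0.927 and 0.526, below the added 1, which shrinks this value. In plain TPM the Huh7 COP1-siRNA value of FOXO3 was 57.2% of that with NC-siRNA. Of the 5 genes that act on MCL1 protein, MARCHF5, a ubiquitin ligase of the mitochondrial surface, was lower in both lines, at 22.6 and 14.9 TPM in Huh7 and at 35.9 and 27.2 TPM in HepG2. Its changes of −0.57 and −0.39 did not reach 1.5-fold on the log2(TPM + 1) scale. In plain TPM the Huh7 COP1-siRNA value was 66.0% of that with NC-siRNA, which lies just past 1.5-fold. JUN, a transcription factor and known COP1 substrate, changed by −0.13 in Huh7 and −0.51 in HepG2. Both genes were picked after their values were seen.

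The median log2 fold change was −0.08 in Huh7 and −0.06 in HepG2 for the 11 genes of the caspases, the apoptosome and the mitochondrial pores. For the 7 inhibitors of apoptosis and their antagonists it was 0.23 and 0.01, for the upstream regulators −0.02 and 0.0080, and for the genes acting on MCL1 protein −0.24 and 0.02. Both lists with a median beyond 0.2 in Huh7 were near 0 in HepG2.

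**Figure D5:**
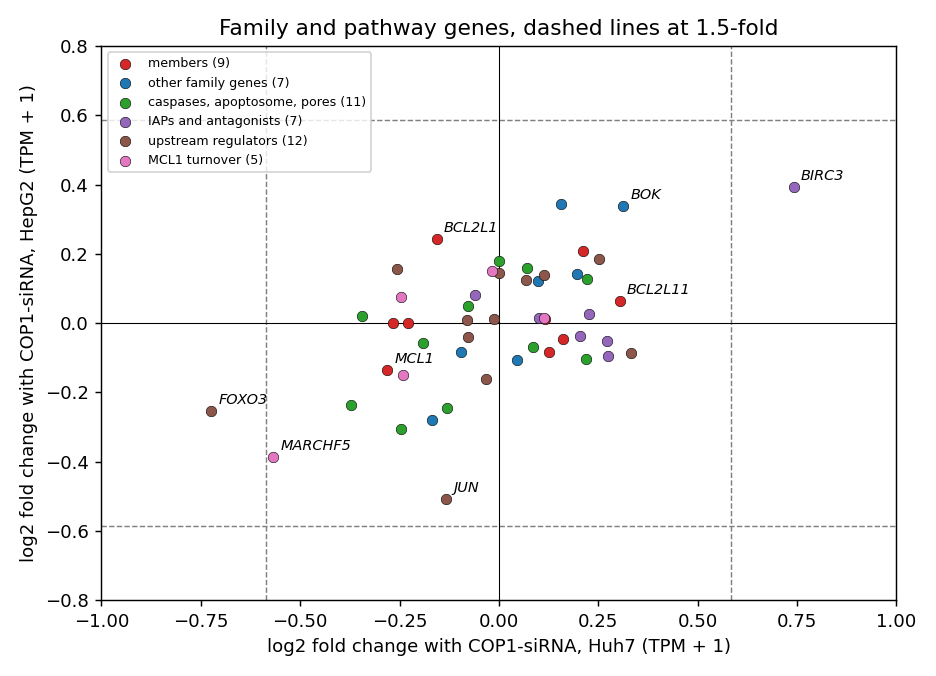
Log2 fold change with COP1-siRNA in Huh7 (x axis) and HepG2 (y axis) on the log2(TPM + 1) scale for the family and 4 groups of pathway genes with at least 1 TPM in both lines, with the number of genes of each group in the key. BIRC3 and FOXO3 lie past the dashed 1.5-fold lines in Huh7, no gene does in HepG2, and all members lie inside.

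Of 13 upstream regulators, 4 were 2-fold or more higher in HepG2 with both siRNAs and 1 was higher in Huh7, near the background of 34.6% of all genes. CDKN1A, a cell cycle inhibitor, and MDM2, a ubiquitin ligase, were higher in HepG2, CDKN1A at 12.3 and 12.9 against 38.9 and 42.5 TPM, and MDM2 at 22.4 and 21.2 against 48.4 and 47.0 TPM. ATF4, a stress factor known to act on PMAIP1, was at 296 and 293 TPM in Huh7 and at 865 and 872 TPM in HepG2. DDIT3, which acts with it, went the other way, at 29.3 and 27.7 TPM in Huh7 and 7.23 and 7.27 TPM in HepG2. With COP1-siRNA these 4 genes changed by −0.08 to 0.12 in either line. Of 7 hepatocyte markers, 5 were lower in HepG2 by 2-fold or more with both siRNAs, while APOA1 was at 234 and 212 TPM in Huh7 and 234 and 317 TPM in HepG2, and with COP1-siRNA their median change was −0.11 in Huh7 and 0.40 in HepG2. The part of these genes in the levels of the members was not tested.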

How the data were processed

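RNA from Huh7 and HepG2 cells with NC-siRNA or COP1-siRNA was sequenced as stranded poly(A) libraries, 1 per condition. The submitters' processing notes name GRCh38, FastQC 0.11.7, Trimmomatic 0.38, HISAT2 2.1.0, StringTie 2.1.3b and edgeR. The annotation is not given in the sources used here. Per the file headers, the authors deposited for each gene the coverage (mean reads per base, not scaled for depth), the FPKM and the TPM, which sums to 1000000 per library. No read counts were used, and the precision of a single value is unknown.

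Gene numbers were matched to RefSeq symbols (96.3% of 46427), and the 49 numbers on several lines were summed. Within each line log2((TPM + 1)/(TPM + 1)) was computed for all genes with at least 1 TPM in at least 1 of its libraries, and 2-fold was the threshold. No test was run, because no condition had a second library and the lines were not taken as replicates of each other. Depth-scaled coverage is the coverage divided by its library's most common ratio to FPKM and put on the TPM scale. Named genes were the members, COP1, all further family genes, pathway genes past 1.5-fold, CDKN1A, MDM2, BIRC3, ATF4 and DDIT3, and the 3 genes nearest in profile to the member that changed most. Others are said to have been picked after their values were seen. Members and lists were chosen with earlier results of these data known. For 3′ UTRs the longest of GENCODE 29 per gene was taken, and promoters were from RefSeq. The fold changes and calls were tested on simulated data. Alternatives were other pseudocounts, FPKM, coverage, scalings, thresholds and minimum TPM. Protein sequences were not analysed here, and a few listed pathway genes are not reported here and are left out of the counts of their lists. Python 3.11.15, numpy 2.4.6, pandas 2.3.3 and matplotlib 3.10.9 were used.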

Additional observations from a re-analysis of the deposited data

Results flagged for a closer look

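Of 30 named genes, not counting the 3 nearest in profile to BAK1, 23 had at least 1 TPM in both lines, and 6 of them changed in opposite directions with COP1-siRNA, each with 1 library per condition. The difference between the lines was not tested for any of them. The values are log2 fold changes, and the difference is HepG2 minus Huh7. BCL2L1 changed by −0.16 in Huh7 and 0.24 in HepG2, a difference of 0.40, the largest of the 6. BAX changed by 0.16 and −0.04, a difference of −0.20. For BBC3 the values were 0.13 and −0.08, a difference of −0.21. BNIP3 had 0.05 and −0.11, a difference of −0.15. DDIT3 had −0.08 and 0.0080, a difference of 0.087, and ATF4 −0.013 and 0.012, a difference of 0.025. On depth-scaled coverage ATF4 was positive in both lines, at 0.19 and 0.05.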

How the results depend on the processing

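With 0 members past 2-fold in each line as reported, each alternative (pseudocount 0.1, FPKM, depth-scaled coverage, median-of-ratios or upper-quartile scaling, a TPM floor of 5 or no floor) also gave 0, as did 1.5-fold. Among members with at least 1 TPM in the line, the largest change under these alternatives was that of BCL2L11 in Huh7. It was 0.3354 with upper-quartile scaling and 0.3352 with FPKM. Of 120 member values under alternatives, 11 changed sign. Among members with at least 1 TPM these were BAD, BID and PMAIP1 in HepG2, all near 0, and none in Huh7. Between the lines, depth-scaled coverage left 1 member higher in HepG2 past 2-fold with both siRNAs, PMAIP1, and BCL2 no longer passed. In HepG2 the scaled coverage of BCL2 was 0.567 and 0.663, only 20.7% and 22.5% of its TPM and below the added 1. With a pseudocount of 0.1 on coverage, chosen after the data were seen, 2 members passed again. BCL2L1 and BID were higher in Huh7 under every alternative run. Median-of-ratios scaling turned the HepG2 excess of MCL1, BAK1 and BCL2L11 with NC-siRNA into −0.30, −0.15 and −0.16. The ratio of prosurvival to proapoptotic TPM in Huh7 fell to 0.383 and 0.311 without BCL2L1, also chosen after the data were seen. Without PMAIP1, Huh7 exceeded HepG2 by 2.31-fold and 2.05-fold. A paired fit over both lines, which would treat them as replicates, was not run. The labels carry no replicate numbers.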

Other observations

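Other genes of the listed pathway also stood apart by line by 2-fold or more with both siRNAs, as did 34.6% of all tested genes, and all those named here were picked after their values were seen. XIAP, an inhibitor of caspases, was at 6.56 and 7.11 TPM in Huh7 and at 18.3 and 18.5 TPM in HepG2. BIRC5 (survivin), which is linked to cell division, was at 67.9 and 78.4 TPM in Huh7 and at 214 and 209 TPM in HepG2. BIRC3 went the other way, 4.07-fold and 4.41-fold higher in Huh7. TP73, a transcription factor gene, was at 0 and 0.0293 TPM in Huh7 and at 8.73 and 8.14 TPM in HepG2. USP9X, which removes ubiquitin from MCL1, was at 25.3 and 21.2 TPM in Huh7 and at 51.6 and 54.4 TPM in HepG2, and BTRC, a ubiquitin ligase subunit, was at 6.70 and 5.51 against 16.9 and 15.1 TPM. On depth-scaled coverage with an added 1, both of the latter fell under 2-fold with NC-siRNA, USP9X with a log2 difference of 0.99 and BTRC with 0.82. This rests on the added 1. The scaled coverage itself was 22.8 in Huh7 and 46.4 in HepG2 for USP9X, and 0.973 and 2.49 for BTRC, past 2-fold for each. Cytochrome c (CYCS) was more even, at 136 to 149.9 TPM over the 4 libraries.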
